A study of Mus musculus with 5 samples.

Results

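The genes described are the mouse platelet-derived growth factor (PDGF) ligands and receptors, 6 genes taken by name from 25415 genes in the deposited RNA-seq tables. The ligands were Pdgfa, Pdgfb, Pdgfc and Pdgfd, the receptors were Pdgfra and Pdgfrb, and together they were represented by 14 of 40201 RefSeq transcripts. Expression was measured in neural stem cells (NSCs; 2 samples), primary cells from embryonic mouse cortex grown as adherent monocultures on laminin for 5 to 8 passages in a serum-free medium with EGF, bFGF and heparin. It was also measured in STO cells (3 samples), a SIM mouse embryonic fibroblast line past passage 30 that was grown in DMEM with fetal bovine serum. Both carried the strain label C57BL/6, and STO cells serve elsewhere in the study as feeders for female germline stem cells. Cell type, culture medium and passage number changed together, so their parts in any difference cannot be told apart. The labels do not say whether the samples came from separate cultures, so the p-values measure the spread between these samples, which may be technical.

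PDGF ligands are secreted dimers that activate receptor tyrosine kinases at the cell surface and so drive division, migration and survival of mesenchymal and glial precursor cells. PDGF-A and PDGF-C act mainly through PDGFRα, PDGF-B acts through both receptors, and PDGF-D acts mainly through PDGFRβ. In the developing brain PDGFRα marks oligodendrocyte precursors, and in connective tissue the receptors are typical of fibroblasts and of the mural cells of vessels.

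Levels are given in FPKM, fragment counts scaled by transcript length and by sequencing depth, which can be compared between genes. The confidence bounds deposited beside the FPKM values imply 15223341 to 22271895 fragments per sample. These sums are rough, since at high levels the bounds are wider than counting error. Differences are STO cells minus NSCs on the log2(FPKM + 1) scale, tested with limma over the 12293 genes whose mean reached 1 FPKM in at least 1 cell type. The p-values were adjusted by the Benjamini-Hochberg method, with a threshold of 0.05. Of these genes 41.9% were called higher and 43.7% lower in STO cells, or 85.6% in all, so a call by itself is common in this comparison. The labels held against defining markers: 8 NSC markers, led by Fabp7 and Olig2, summed to 3829 to 4046 FPKM in NSCs and to 0.368 to 0.517 FPKM in STO cells. In turn 8 fibroblast markers, led by Col1a2 and Col3a1, summed to 1289 to 1367 FPKM in STO cells and to 6.64 to 6.87 FPKM in NSCs.

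Both receptors and the ligand Pdgfc were higher in STO cells than in NSCs. Pdgfra rose 11.5-fold, from 30.3 ± 0.276 (SD, n = 2) to 347 ± 6.29 FPKM (SD, n = 3), and Pdgfc rose 3.69-fold, from 5.36 ± 0.176 (SD, n = 2) to 19.8 ± 0.921 FPKM (SD, n = 3). Pdgfrb was near the limit of detection in NSCs and stood at 24.3 ± 0.596 FPKM (SD, n = 3) in STO cells. Pdgfa differed little, and Pdgfb and Pdgfd were hardly detected in either cell type. Pdgfa, Pdgfc, Pdgfra and Pdgfrb passed the filter on low values and could be tested. Of these, Pdgfrb passed only through its level in STO cells. The samples of the 2 groups did not overlap for these 4 genes, with STO cells above, as was the case for 43.9% of the genes tested. Pdgfc, Pdgfra and Pdgfrb also differed by at least 1 on the log2 scale, which 17.1% of the genes tested did with a call toward STO cells and 21.3% toward NSCs.

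**Figure D1:**
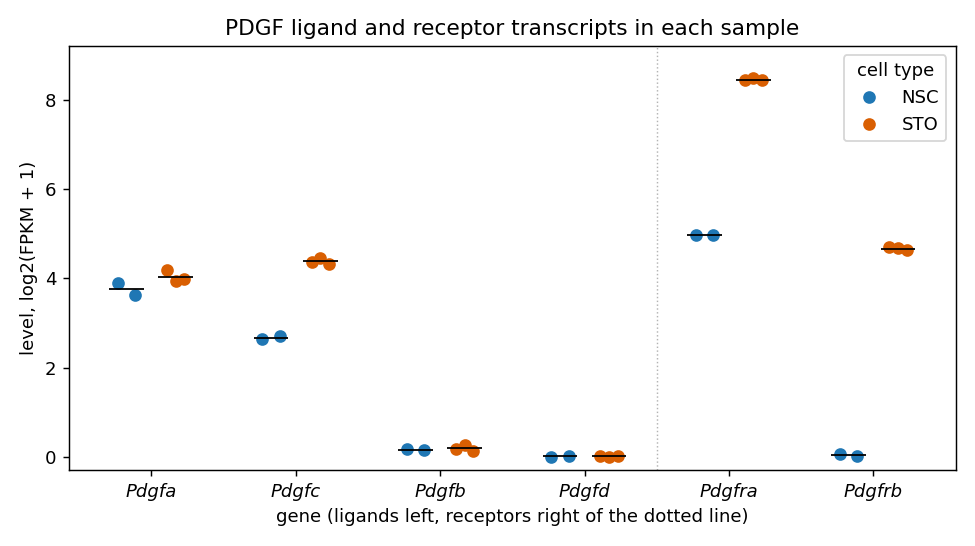
Level of each PDGF gene on the log2(FPKM + 1) scale, with 1 point per sample (NSC, n = 2; STO, n = 3) and the group mean as a black bar. The Pdgfc, Pdgfra and Pdgfrb points of STO cells lie far above those of NSCs, the Pdgfa points lie close together, and Pdgfb and Pdgfd lie near 0 in both cell types.

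Pdgfra encodes PDGFRα, which binds PDGF-AA and PDGF-CC among other dimers. Its levels were 30.4 and 30.1 FPKM in NSC replicates 1 and 2, and 344, 355 and 344 FPKM in STO replicates 1, 2 and 3. The groups did not overlap, and the spread within each was a small part of the distance between them. The log2 difference was 3.48 (SE 0.051), with an adjusted p-value of 1.46e-08 by limma. In STO cells Pdgfra took rank 139 to 156 from the top among 25415 genes, and in NSCs rank 2699 to 2824. It was the most abundant PDGF gene in both cell types.

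NSCs also held transcripts of oligodendrocyte precursors, the cells that Pdgfra marks in the brain. The 8 markers of that lineage summed to 1213 to 1363 FPKM in NSCs and to 5.17 to 5.47 FPKM in STO cells. All 8 were lower in STO cells, as were 43.7% of all genes tested, and all but Cspg4 passed the filter through NSCs alone. Olig1, a basic helix-loop-helix factor of the lineage, was at 1036 ± 102 FPKM (SD, n = 2) in NSCs and was listed at 0 in the 3 STO samples. Mbp, which encodes myelin basic protein, was at 85.8 ± 3.46 FPKM (SD, n = 2), Gpr17 at 44.0 ± 0.546 FPKM (SD, n = 2) and Sox10 at 9.42 ± 1.08 FPKM (SD, n = 2) in NSCs. The part of these cells in the Pdgfra level of NSCs was not tested. In bulk samples such as these, fewer cells of a type and less RNA per cell cannot be told apart.

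The deposited tables divide Pdgfra among 5 RefSeq transcripts, and the comparison of single transcripts was chosen after their values were seen. Only NM_011058 and NM_001083316 had values above 0 in any sample. NM_011058 starts at position 75548276 of chromosome 5 in mm9 on the + strand, NM_001083316 starts 3915 bases downstream at 75552191, and both end at 75594231. GENCODE places the first exon of a Pdgfra transcript at 75548316-75548482 and that of another at 75552191-75552374, so the downstream start is annotated in that source too. The 250 bases before each start are shown in mm9, 5′ to 3′ on the + strand, because both starts were assigned transcripts in NSCs and the upstream start alone in STO cells. Capitals mark CG dinucleotides. The windows are chr5:75548026-75548275 for NM_011058 and chr5:75551941-75552190 for NM_001083316, and neither overlaps a GENCODE exon of Pdgfra.
NM_011058: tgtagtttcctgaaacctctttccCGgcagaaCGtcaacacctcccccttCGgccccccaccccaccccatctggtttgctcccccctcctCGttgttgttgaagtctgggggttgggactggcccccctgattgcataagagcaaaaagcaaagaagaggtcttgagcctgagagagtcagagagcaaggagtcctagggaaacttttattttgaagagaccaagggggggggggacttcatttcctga
NM_001083316: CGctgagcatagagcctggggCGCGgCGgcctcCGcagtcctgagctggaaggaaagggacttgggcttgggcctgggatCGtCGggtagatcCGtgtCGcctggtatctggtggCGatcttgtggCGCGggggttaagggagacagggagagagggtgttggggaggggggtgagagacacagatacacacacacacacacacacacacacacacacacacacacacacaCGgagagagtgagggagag

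The window before the upstream start held 4 CG dinucleotides and 54.4% G or C, and the window before the downstream start held 13 CG dinucleotides and 61.6% G or C. Over 32851 windows of the same length before RefSeq starts in GRCm38.p6 the median was 6 CG dinucleotides. Neither window held the motif CCAAT on either strand, which 33.9% of those windows hold. The motif TATAAA, held by 12.4%, was in neither window. The GC box motif GGGCGG, held by 32.7%, was also in neither. This says only that these letters are not in these windows.

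NM_011058 was at 25.3 and 25.8 FPKM in NSC replicates 1 and 2 and at 344, 355 and 344 FPKM in STO replicates 1, 2 and 3. NM_001083316 was at 5.17 FPKM (deposited confidence bounds 4.68 to 5.67) and 4.27 FPKM (bounds 3.84 to 4.70) in NSC replicates 1 and 2, and was listed at 0 in all 3 STO samples. It made up 17.0% and 14.2% of the Pdgfra FPKM in NSCs. Among 16257 single transcripts tested by limma, of which 38.1% were called higher and 39% lower in STO cells, NM_011058 differed by 3.72 (SE 0.038, adjusted p = 1.16e-06). No test is given for NM_001083316, which passed the filter through NSCs alone and has no spread in STO cells. The deposited bounds of NM_011058 in STO cells reach 14.4 to 14.9 FPKM above its value, which is more than the 4.72 ± 0.640 FPKM (SD, n = 2) of NM_001083316 in NSCs. Cufflinks divides fragments from shared exons between transcripts. Whether a level like that of NSCs could be detected beside NM_011058 in STO cells was not tested.

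**Figure D2:**
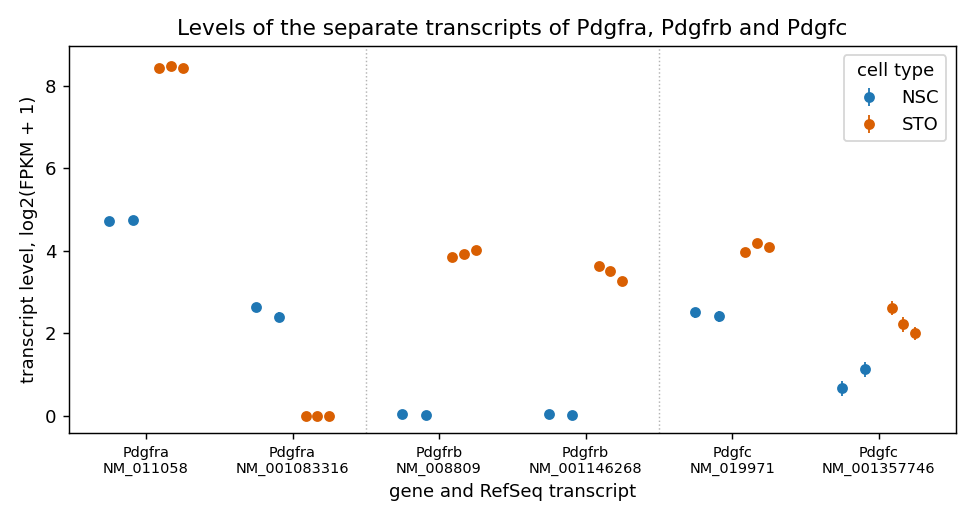
Levels of the 2 detected transcripts each of Pdgfra, Pdgfrb and Pdgfc on the log2(FPKM + 1) scale, with 1 point per sample and the deposited confidence bounds as bars. NM_001083316 of Pdgfra is at 4.27 and 5.17 FPKM in NSCs and at 0 in the 3 STO samples, while every other transcript shown is higher in STO cells.

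Pdgfrb encodes PDGFRβ, the main receptor of PDGF-BB and PDGF-DD. Its levels were 0.0529 and 0.0161 FPKM in NSC replicates 1 and 2, and 24.8, 24.5 and 23.7 FPKM in STO replicates 1, 2 and 3. The NSC values rest on about 6 implied fragments over both samples. The log2 difference was 4.61 (SE 0.053). The pseudocount limits this value, which was 7.52 with 0.1 in place of 1. Because Pdgfrb passed the filter through STO cells alone, a higher level there was favoured by the filter. The fit without a filter called 70.4% of 17725 genes in either direction. In it the adjusted p-value of Pdgfrb was 1.50e-07 by limma. As a ratio of mean FPKM the difference was 705-fold, and the 95% Poisson interval of the NSC fragments alone allows 324-fold to 1922-fold, which covers counting error only. In STO cells its transcripts NM_008809 and NM_001146268 stood at 14.2 ± 0.827 and 10.1 ± 1.41 FPKM (SD, n = 3), and NM_001146268 made up 36.4% to 46.0% of the gene. The gene lies at chr18:61204804-61244721 in mm9 on the + strand.

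Of the summed receptor FPKM, Pdgfra made up 99.8% and 99.9% in the NSC samples and 93.3% to 93.6% in the STO samples. Pdgfra exceeded Pdgfrb by 13.9 to 14.5 times in STO cells. Thus transcripts of both receptors were detected in STO cells, with Pdgfra in large excess, and NSCs had Pdgfra nearly alone.

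Pdgfc encodes PDGF-C, a ligand secreted with a CUB domain that must be cleaved off before it can bind PDGFRα. Its levels were 5.24 and 5.49 FPKM in NSC replicates 1 and 2, and 19.7, 20.7 and 18.9 FPKM in STO replicates 1, 2 and 3. All STO samples lay above both NSC samples. The log2 difference was 1.71 (SE 0.060), with an adjusted p-value of 6.79e-07 by limma. Both of its transcripts rose. NM_019971 differed by 1.62 (SE 0.082, adjusted p = 6.35e-05 by limma on single transcripts). NM_001357746 differed by 1.38 (SE 0.24), but it passed the filter through STO cells alone, so no test is given for it. The share of NM_001357746 in the gene was 11.1% and 21.7% in NSCs and 15.8% to 25.9% in STO cells, so the shares overlapped. The locus is chr3:80840338-81017962 in mm9 on the + strand.

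Pdgfa encodes PDGF-A, whose homodimer binds PDGFRα only. Its levels were 13.8 and 11.3 FPKM in NSC replicates 1 and 2, and 17.0, 14.4 and 14.7 FPKM in STO replicates 1, 2 and 3. The STO samples lay above the NSC samples, but the closest of them were apart by less than the distance between the NSC samples. The ratio of the means was 1.23, and the log2 difference of 0.28 (SE 0.11) had an adjusted p-value of 0.046 by limma. Of 15 alternatives 6 left it past the threshold, and without NSC replicate 2 the difference was 0.15 (adjusted p = 0.33). A difference in Pdgfa was therefore not established. Its only transcript in the tables was NM_008808, at chr5:139452929-139470907 in mm9 on the - strand.

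Pdgfb encodes PDGF-B, which binds both receptors. Its levels were 0.130 and 0.109 FPKM in NSC replicates 1 and 2, and 0.136, 0.197 and 0.0890 FPKM in STO replicates 1, 2 and 3, from 9 to about 15 implied fragments per sample. The groups overlapped. In the fit without a filter on low values, in which 70.4% of 17725 genes were called in either direction, the log2 difference was 0.026 (95% confidence interval -0.084 to 0.14, adjusted p = 0.61 by limma). Pdgfd encodes PDGF-D, the other ligand with a CUB domain. It was listed at 0 in NSC replicate 1 and STO replicate 2 and at 0.0146 to 0.0192 FPKM in the other samples, on under 2 implied fragments in each. No fold is given for it, and a difference was not detectable at this depth. These 2 loci are chr15:79826306-79845238 on the - strand and chr9:6168486-6378845 on the + strand in mm9.

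The order of levels in NSCs was Pdgfra, Pdgfa, Pdgfc, Pdgfb, Pdgfrb and Pdgfd. Only Pdgfrb and Pdgfd had overlapping ranges among neighbours in this order. In STO cells the order was Pdgfra, Pdgfrb, Pdgfc, Pdgfa, Pdgfb and Pdgfd, with no overlap between neighbours, although Pdgfrb exceeded Pdgfc by 1.23 times and Pdgfc exceeded Pdgfa by 1.29 times. Pdgfa was 2.63 and 2.06 times Pdgfc in the NSC samples and 0.864, 0.693 and 0.779 times Pdgfc in STO replicates 1, 2 and 3. The ligand with the highest level was thus Pdgfa in each NSC sample and Pdgfc in each STO sample.

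The 4 ligands summed to 19.1 and 16.9 FPKM in NSC replicates 1 and 2 and to 36.9, 35.3 and 33.7 FPKM in STO replicates 1, 2 and 3. The 2 receptors summed to 30.5 and 30.1 FPKM in NSCs and to 368, 379 and 368 FPKM in STO cells. The receptor sum was 1.60 and 1.78 times the ligand sum in NSCs and 9.98 to 10.9 times in STO cells. These sums are descriptions and were not tested.

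**Figure D3:**
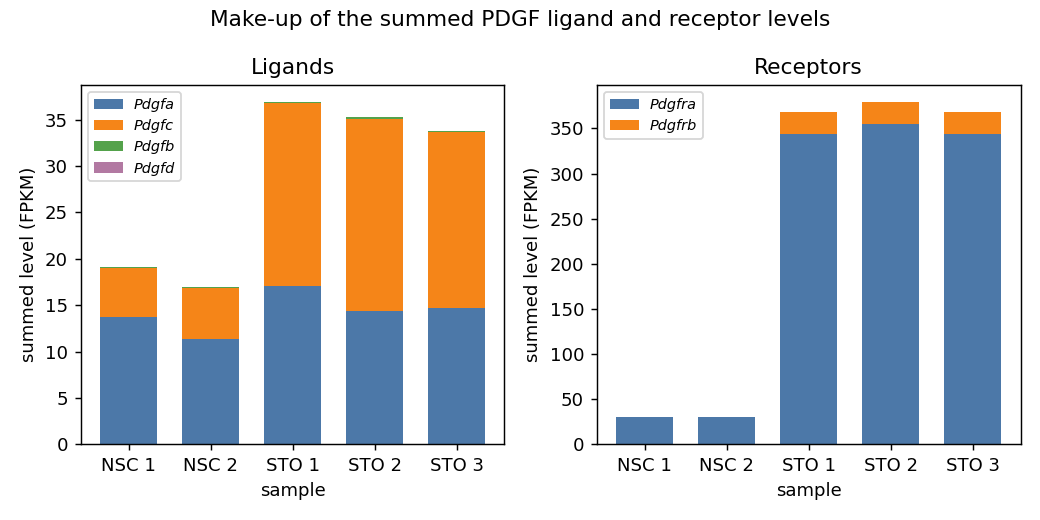
Summed FPKM of the 4 ligands (left) and the 2 receptors (right) in each sample, with stacked bars starting at 0 and separate vertical scales. Ligand sums lie between 16.9 and 36.9 FPKM, with Pdgfa the larger part in NSCs and Pdgfc in STO cells, and receptor sums reach 379 FPKM in STO cells.

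Before they bind, PDGF-A and PDGF-B are cut by furin-like proteases, and PDGF-C and PDGF-D by the plasminogen activators tPA and uPA. From a list of 9 such proteases, binding proteins and co-receptors, 8 could be tested, of which 6 were higher and 2 lower in STO cells. Over all genes tested 41.9% were higher and 43.7% lower. The count includes Plau and Pcsk6, whose directions the filter favoured. The median difference was 1.23, against -0.023 over all genes tested. Plat, which encodes the tPA that activates PDGF-C, fell from 184 ± 5.41 (SD, n = 2) to 16.5 ± 0.371 FPKM (SD, n = 3), a log2 difference of -3.40 (adjusted p = 1.55e-08 by limma). Plau, which encodes the uPA that activates PDGF-D, rose from 0.958 ± 0.0299 (SD, n = 2) to 23.1 ± 0.466 FPKM (SD, n = 3), a log2 difference of 3.62. Plau passed the filter through STO cells alone, which favoured a higher level there, so no test is given for it. Plat transcripts were thus lower in the cells with more Pdgfc transcripts, and the cleavage of PDGF-C was not measured. Furin rose 3.70-fold to 38.2 ± 2.95 FPKM (SD, n = 3). Pcsk6, a related convertase that passed the filter through NSCs alone, fell from 2.75 ± 0.0521 FPKM (SD, n = 2) to a listed value of 0 in the 3 STO samples.

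Activated receptors recruit adaptors and enzymes that relay the signal to RAS, PI3-kinase and STAT proteins. All 33 relay genes listed could be tested, of which 14 were higher, 16 were lower and 3 were not called, and the median difference was -0.055. This division is near that of all genes, of which 41.9% were higher and 43.7% lower. Shc1, an adaptor to the RAS pathway, rose from 5.83 ± 0.239 (SD, n = 2) to 54.5 ± 3.11 FPKM (SD, n = 3). Stat5a, a transcription factor gene that passed the filter through STO cells alone, rose 9.05-fold. Fyn, a SRC-family kinase, fell from 239.5 ± 16.5 (SD, n = 2) to 16.0 ± 0.141 FPKM (SD, n = 3), and the docking protein gene Gab1 fell from 22.7 ± 1.28 (SD, n = 2) to 5.10 ± 0.0922 FPKM (SD, n = 3).

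Of 8 genes that attenuate the receptors, 4 were higher and 4 lower in STO cells. This division too is near that of all genes tested, of which 41.9% were higher and 43.7% lower. Rasa1, which encodes the RAS GTPase-activating protein bound by PDGFRβ, rose 3.03-fold to 27.4 ± 0.821 FPKM (SD, n = 3). Ptprj, a receptor phosphatase, fell from 10.7 ± 0.237 (SD, n = 2) to 3.34 ± 0.132 FPKM (SD, n = 3), and Ptpn1 fell from 41.0 ± 4.19 (SD, n = 2) to 23.5 ± 0.427 FPKM (SD, n = 3).

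Genes known to be induced by PDGF in fibroblasts lay mostly on the side of STO cells. Of 14 such genes tested, 13 were higher and 1 was lower, against 41.9% and 43.7% of all genes tested. The median difference was 2.98. Fosb, Fosl1, Ccl7, Cxcl1 and Has2 passed the filter through STO cells alone, which favoured a higher level there. Cxcl1 and Ccl2, chemokine genes, rose from 0.379 ± 0.156 to 244 ± 4.78 FPKM and from 1.92 ± 0.0707 to 325 ± 23.6 FPKM (SD, n = 2 and n = 3). Myc was the gene that was lower, at 72.3 ± 11.4 FPKM (SD, n = 2) in NSCs and 40.4 ± 0.682 FPKM (SD, n = 3) in STO cells. Serum and other growth factors also induce these genes, and the media differed between the cell types, so that part was not tested.

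**Figure D4:**
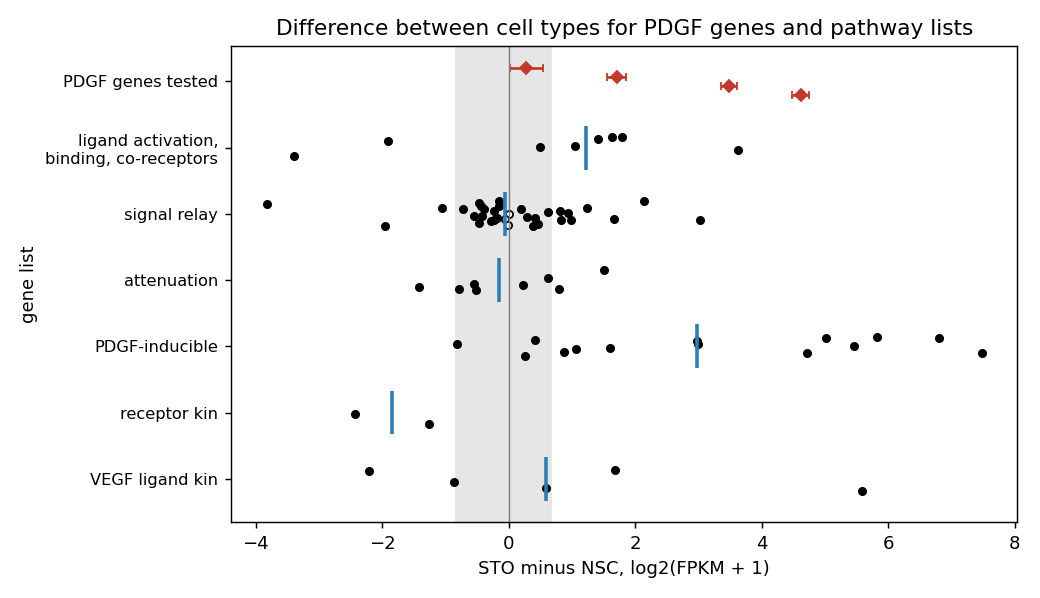
Difference between STO cells and NSCs on the log2(FPKM + 1) scale for the 4 tested PDGF genes (diamonds, from top to bottom Pdgfa, Pdgfc, Pdgfra and Pdgfrb, with 95% confidence intervals) and the tested genes of 6 lists (filled where called at an adjusted p-value under 0.05, open where not). Blue lines are list medians and the grey band is the middle 50% of all tested genes, from -0.83 to 0.68. The PDGF-inducible genes have a median of 2.98, while the signal relay genes lie around 0.

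The receptors closest in structure to PDGFRs are KIT, CSF1R and FLT3, followed by the VEGF receptors. Among these 6 genes only Kit and Flt1 reached the minimum FPKM, both through their level in NSCs alone, so that a lower level in STO cells was favoured by the filter. They were at a log2 difference of -2.43 and -1.26, and no test is given for them. Kit, the receptor of stem cell factor, was at 4.35 and 4.47 FPKM in NSCs and at 0.0172, 0 and 0 FPKM in STO cells. Csf1r, Flt3, Kdr and Flt4 stayed under 1 FPKM in both, and Csf1r was above its NSC values in each STO sample.

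The VEGF ligands share the cystine-knot fold with PDGFs, and of 5 tested 3 were higher and 2 lower in STO cells. Over all genes tested 41.9% were higher and 43.7% lower. Vegfc and Vegfd passed the filter through STO cells alone and Pgf through NSCs alone, which favoured the direction of each. Vegfd rose from 0.0751 ± 0.106 (SD, n = 2) to 50.8 ± 1.11 FPKM (SD, n = 3). Vegfb rose 1.52-fold, and Vegfc differed by 1.68 on the log2 scale. Vegfa, the main angiogenic ligand, was 4.79-fold lower, at 94.2 ± 9.01 FPKM (SD, n = 2) in NSCs and 19.7 ± 0.702 FPKM (SD, n = 3) in STO cells. Pgf was at 1.20 ± 0.278 FPKM (SD, n = 2) in NSCs and 0.205 ± 0.0502 FPKM (SD, n = 3) in STO cells.

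The nearest genes along the chromosome are given as a description. Of all genes tested, 46% had each STO sample below both NSC samples. Kit is the nearest named gene downstream of Pdgfra, at 377 kb. Csf1r lies 20.5 kb from Pdgfrb and was at 0 to 0.0328 FPKM in NSCs and 0.150 to 0.203 FPKM in STO cells. Glrb, 123 kb upstream of Pdgfc, was at 14.5 and 13.0 FPKM in NSCs and 1.20 to 1.36 FPKM in STO cells. Prkar1b, 22.4 kb from Pdgfa, was at 6.77 and 6.07 FPKM in NSCs and was listed at 0 in STO cells. At 795 kb from Pdgfd, Casp12 reached 71.5 to 73.9 FPKM in STO cells against 1.20 to 1.22 FPKM in NSCs, while Pdgfd itself stayed near 0.

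The genes most like each member were found by the root mean square difference of log2(FPKM + 1) over the 5 samples among the tested genes. For Pdgfra they were Serpinh1 (0.12), Ctsl (0.12) and Timp2 (0.22), and for Pdgfrb they were Irx2 (0.041), Nptxr (0.056) and Ifi204 (0.068). Tmtc3 (0.059), Pml (0.063) and Fnip1 (0.065) were closest to Pdgfc, and Stx16 (0.087) and Znrf1 (0.097) to Pdgfa. With 2 cell types this measure reflects little more than the mean level in each.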

How the data were processed

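Per the labels and the paper's methods, stranded mRNA libraries were mapped to mm9 by HISAT2, and RefSeq transcripts were quantified by Cufflinks 2.2.1. The authors deposited FPKM values with confidence bounds in FPKM, with depth already divided out, and no counts were used. Transcripts were matched to symbols through a RefSeq table of GRCm38.p6 (39946 of 40201), used for names only, and FPKM were summed per symbol over overlapping loci. Starts were shifted by 1 base to count from 1. Fragments were implied by taking the distance to the upper bound as 2 Poisson standard deviations. Among transcripts of single-transcript genes with under 20 fragments, 89.1% to 91.1% lay within 0.1 of a whole number. At high levels the bounds are wider than counting error, so fragments are given for low values only, apart from the rough sums per sample.

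limma 3.58.1 in R 4.3.3 (eBayes with a trend) was run on log2(FPKM + 1). On simulated data with log2 differences of 1 or 2 it recovered 188 of 200 changed genes among 12293, with 9 unchanged genes called. Far more genes were called in the data (85.6%), and differences as small as that of Pdgfa were not simulated. Members and gene lists were chosen with earlier results of these data known. Besides the PDGF genes, all tested kin are named, and for each other list up to 2 called genes with the largest rise and up to 2 with the largest fall, provided the groups did not overlap. The nearest named genes on either side of each PDGF gene and up to 3 genes closest in level are given by rule. Some genes that these rules name are not reported here. Gpr17, Sox10, Tubb3, Rgs5, Kcnj8, Abcc9 and the single transcripts were chosen after their values were seen. Sequences come from the NCBIM37 genome (mm9), whose chromosome lengths held the loci of 25259 genes of 25415; the others lie on sequences not used here. Python 3.11.15 and scipy 1.17.1 were used for the rest. Compartments, ChIP-seq and Hi-C were not analysed here.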

Additional observations from a re-analysis of the deposited data

How the results depend on the processing

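Pdgfra, Pdgfc and Pdgfrb kept their direction and stayed past the threshold under each alternative run, with log2 differences of 3.44 to 3.72, 1.67 to 1.86 and 4.59 to 7.52. The upper value for Pdgfrb came from the pseudocount of 0.1, and that for Pdgfra from NM_011058 alone, which was added after the values were seen. Pdgfrb passed the filter through STO cells alone, which favoured a higher level there in each run with a filter. Pdgfa kept its direction but not its call. Its difference was 0.30 with a pseudocount of 0.1 (adjusted p = 0.052), 0.28 without a filter on low values (adjusted p = 0.071), 0.23 with quantile normalization (adjusted p = 0.081), 0.27 with upper quartile scaling (adjusted p = 0.058) and 0.24 with median ratio scaling (adjusted p = 0.079), all by limma. Leaving out single samples gave 0.15 to 0.41 for Pdgfa, and the call was lost without NSC replicate 1 (0.41, adjusted p = 0.053), NSC replicate 2 (0.15, adjusted p = 0.33), STO replicate 1 (0.21, adjusted p = 0.11) or STO replicate 3 (0.30, adjusted p = 0.064). Where 1 NSC sample was left, it was assumed to vary like the STO samples. The cause was not tested.

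With a log2 difference of 1 or more also required, 2103 genes counted as higher and 2617 as lower, against 5153 and 5375. Fewer genes tested at a minimum FPKM of 5 left 1 lower gene in the ligand activation list, 0 in the receptor kin and 1 among the VEGF ligands, which also had 1 with quantile normalization. Without a filter, 1 receptor relative was higher and 4 were lower, against 5919 and 6559 of all 17725 genes in that fit. The other list counts stayed within 1.5 times. A replicate block gave 4994 genes higher and 5250 lower, and a Pdgfa difference of 0.30 (adjusted p = 0.0089 by limma). The block changed no call among the PDGF genes. The numbers are not known to pair samples, since same-numbered samples had deviations correlated at 0.011 and 0.060. Depth limits Pdgfb, Pdgfd and, in NSCs, Pdgfrb.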

Other observations

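Other marker lists describe what else the samples held. In NSCs, 5 astrocyte markers summed to 70.5 to 71.6 FPKM, against 0.242 to 0.432 FPKM in STO cells. All 4 that were tested were lower in STO cells, as were 43.7% of all genes tested, but each passed the filter through NSCs alone. Aldh1l1, a folate enzyme typical of astrocytes, was at 46.4 ± 0.859 FPKM (SD, n = 2) and Gfap at 16.4 ± 0.718 FPKM (SD, n = 2) in NSCs. The 6 neuronal markers summed to 116 to 117 FPKM in NSCs and 12.3 to 12.9 FPKM in STO cells. Of these, 4 were tested and 3 were lower in STO cells, as were 43.7% of all genes tested. Dcx and Syt1 passed the filter through NSCs alone. Map2 was at 101 ± 1.12 FPKM (SD, n = 2) in NSCs, while Tubb3 was at 8.69 ± 0.785 FPKM (SD, n = 2) in NSCs and 8.30 ± 0.402 FPKM (SD, n = 3) in STO cells (adjusted p = 0.48 by limma).

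Pericytes and smooth muscle cells commonly express Pdgfrb. Their 8 markers summed to 11.5 to 11.7 FPKM in NSCs and 60.3 to 63.4 FPKM in STO cells, but only Acta2 and Notch3 reached the minimum FPKM. Acta2, smooth muscle actin, rose from 2.08 ± 0.0163 (SD, n = 2) to 47.9 ± 2.83 FPKM (SD, n = 3). The pericyte marker Rgs5 was at 0.0392 ± 0.0154 FPKM (SD, n = 3) in STO cells, and Kcnj8 and Abcc9 were listed at 0 in them. The 5 endothelial markers summed to at most 0.643 FPKM and the 5 markers of microglia and blood cells to at most 0.191 FPKM in any sample.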
